A study of Mus musculus with 12 samples.

Results

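The genes described here are 9 endothelial genes of the mouse lung: Klf2 and Klf4, the SoxF factor genes Sox7, Sox17 and Sox18, the effector genes Nos3, Egfl7 and Ramp2, and Erg. They were chosen from measured values of these arrays, for the low levels of Klf2 and Sox18 in ventilated lungs, and their ventilation differences are therefore given as a description without a test. They make up 9 of the 12921 genes whose probe sets passed a filter on low values, and all 9 passed it through the main probe set, the one with the highest mean over 12 arrays. The platform annotation assigned 16 probe sets to these genes alone, between 1 and 4 for each.

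Total RNA from the lungs of mice aged 8 to 12 weeks was hybridised to 12 Affymetrix arrays, 3 in each of 4 groups. Control mice received phosphate-buffered saline. The group titled VALI was put on a ventilator for 4 hours with breaths of 30 ml per kg, a volume that injures the lung by stretch. The rhPBEF group received recombinant human pre-B-cell colony-enhancing factor, the extracellular form of the NAD-synthesis enzyme Nampt, injected into the trachea at 20 µg for each mouse, with 1.5 µl water per g body weight as the vehicle. The group titled rhPBEF and VALI received both. Strain, sex, the interval from injection to sampling and any injection given to the VALI mice were not stated in the labels. Nor was it stated that replicates were separate mice. The p-values below therefore weigh differences against the spread between these arrays, which may not be the spread between mice. The unventilated groups have no stated sham procedure, and ventilation cannot be told apart from the handling that goes with it. Likewise, control mice received saline and rhPBEF was given in water, so rhPBEF cannot be told apart from its vehicle and injection.

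Endothelial cells sense the drag of flowing blood. Steady laminar flow activates a kinase cascade that ends in ERK5 and the MEF2 transcription factors, which switch on KLF2 and KLF4, and these in turn drive nitric oxide synthase and thrombomodulin and hold back inflammatory adhesion genes. The SoxF factors SOX7, SOX17 and SOX18 act in arterial and lymphatic specification and in the endothelial barrier, and ERG, an ETS-family factor, maintains endothelial identity. The lung holds one of the densest capillary beds of the body, so transcripts of these genes are readily measured in whole-lung RNA.

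The stretch upstream of Klf2 and of Klf4 is shown because the MEF2 step acts at the Klf2 promoter. RefSeq promoter windows (GRCm38.p6) matched 4 of the 9 genes, Klf2, Klf4, Egfl7 and Erg, in 8 windows. The 250 bases before each annotated start are printed 5′ to 3′ on the gene's strand, at chr8:72318812-72319061 on the plus strand for Klf2 and chr4:55532476-55532725 on the minus strand for Klf4. Capitals mark MEF2-type matches (CTA and TAG around any 4 bases) and GC boxes (GGGCGG), each sought on both strands.
Klf2: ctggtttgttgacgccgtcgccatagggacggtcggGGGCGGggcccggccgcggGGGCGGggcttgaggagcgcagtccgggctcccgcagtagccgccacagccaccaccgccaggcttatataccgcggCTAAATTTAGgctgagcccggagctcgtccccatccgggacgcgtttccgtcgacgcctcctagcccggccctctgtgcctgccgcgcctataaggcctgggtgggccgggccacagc
Klf4: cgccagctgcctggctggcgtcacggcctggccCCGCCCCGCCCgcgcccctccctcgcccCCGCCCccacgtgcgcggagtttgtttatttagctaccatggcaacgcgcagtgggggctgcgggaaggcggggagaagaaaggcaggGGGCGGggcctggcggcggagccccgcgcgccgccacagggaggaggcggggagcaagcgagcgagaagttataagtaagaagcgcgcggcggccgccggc
The Klf2 window held 1 MEF2-type match, from -118 to -109 relative to the start, and 2 GC boxes, from -214 to -209 and from -195 to -190. The Klf4 window held no MEF2-type match and 4 GC boxes, of which a pair overlapped by 1 base at -212. Among 32851 windows of the same length 3.2% held a MEF2-type match and 32.7% a GC box. GC content was 71.2% in the Klf2 window and 74.0% in the Klf4 window. The matches describe these letters and no binding was measured.

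The arrays carried a strong lung and endothelial signal. The alveolar marker Sftpc lay between 14.76 and 14.97 and the endothelial junction markers Cdh5 and Cldn5 between 11.18 and 11.79 and between 12.34 and 13.24 on the log2 scale. Array medians ran from 7.0 to 7.07, and within-group correlations from 0.983 to 0.997. Skeletal muscle markers stood apart on 2 arrays, VALI replicate 3 and rhPBEF replicate 2. Their means of the list lay 2.59 and 3.65 above the control mean on the log2 scale. Leaving both out is reported for the ventilation differences of Klf2, Sox18 and Nos3 and beside the comparison of rhPBEF with control.

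Klf2, the flow-induced regulator of endothelial quiescence, was lower in every ventilated array. Its log2 level was 12.53, 11.90 and 12.29 in control lungs and 11.63, 10.69 and 10.84 in VALI lungs. It was 11.87, 12.05 and 12.35 after rhPBEF and 11.02, 11.07 and 11.08 after both. All 6 ventilated arrays lay below all 6 unventilated ones, and the 3 arrays of the combined treatment were almost level with one another (SD 0.03). The VALI mean was 44.0% of the control mean (log2 difference -1.19 ± 0.23, SE), and the mean after both treatments was 48.9% of that after rhPBEF (-1.03 ± 0.23). When arrays were weighted by their estimated quality, the VALI difference was -0.71. Leaving out the 2 arrays with raised muscle markers gave -1.08 for VALI against control and -1.05 with rhPBEF on both sides.

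Klf4, the close relative of Klf2 that shares many of its endothelial targets, was lower by a smaller amount. Control arrays read 12.28, 11.65 and 11.90 and VALI arrays 11.56, 11.52 and 11.42 on the log2 scale. Arrays after rhPBEF read 11.55, 12.14 and 12.22, and those after both treatments 11.18, 11.11 and 11.97. The VALI arrays lay just below the lowest control array, whereas the arrays after both treatments overlapped those after rhPBEF. The difference was -0.44 ± 0.24 (SE) for VALI against control and -0.55 ± 0.24 for both treatments against rhPBEF. A second Klf4 probe set gave -0.56 ± 0.24 for VALI against control.

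Sox18, the SoxF gene known from vascular and lymphatic development, had the lowest VALI difference of the 9 genes, while with rhPBEF on both sides Klf2 was lower. Its log2 level was 11.88, 12.02 and 11.81 in control lungs and 10.90, 10.78 and 10.18 in VALI lungs. It was 11.73, 10.99 and 11.64 after rhPBEF and 10.69, 10.91 and 9.79 after both. The groups with and without ventilation did not overlap, although rhPBEF replicate 2, at 10.99, lay only just above the highest ventilated array. VALI lungs held 41.1% of the control level (-1.28 ± 0.29, SE), and lungs given both held 50.2% of the rhPBEF level (-0.99 ± 0.29). Without replicate 3 of the combined treatment the latter difference was -0.66, and with array weights it was -0.59. Leaving out the 2 arrays with raised muscle markers gave -1.06 for VALI against control and -1.22 with rhPBEF on both sides.

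Sox17, which acts in arterial identity, was lower than control in all 3 other groups. Control arrays read 10.70, 10.46 and 10.36 on the log2 scale and VALI arrays 9.76, 10.25 and 9.89. Arrays after rhPBEF read 10.03, 9.47 and 9.94, and those after both treatments 9.37, 9.53 and 10.04. Every array outside the control group lay below every control array, and the 3 treated groups overlapped one another. The difference was -0.54 ± 0.20 (SE) for VALI against control and -0.17 ± 0.20 for both treatments against rhPBEF. The second Sox17 probe set gave -0.71 ± 0.19 for VALI against control. The main Sox17 probe set carries the suffix that the manufacturer gives to sets whose probes can match other transcripts.

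Sox7, the remaining SoxF gene, showed no separation of the groups. Its log2 level was 10.80, 10.78 and 9.96 in control lungs, 9.98, 11.38 and 10.00 in VALI lungs, 10.57, 9.94 and 10.15 after rhPBEF and 10.53, 10.14 and 9.80 after both. The VALI mean differed from control by -0.06 ± 0.37 (SE), with a 95% interval of -0.88 to 0.76, so a difference as large as that of Klf4 was not resolved. VALI replicate 2 stood far above its group, and the sign of the VALI difference turned in 6 of 23 alternative analyses. Leaving out 1 array at a time gave -0.53 to 0.18, and array weights gave -0.62. The second Sox7 probe set lay near 6 on every array and did not pass the filter.

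**Figure D1:**
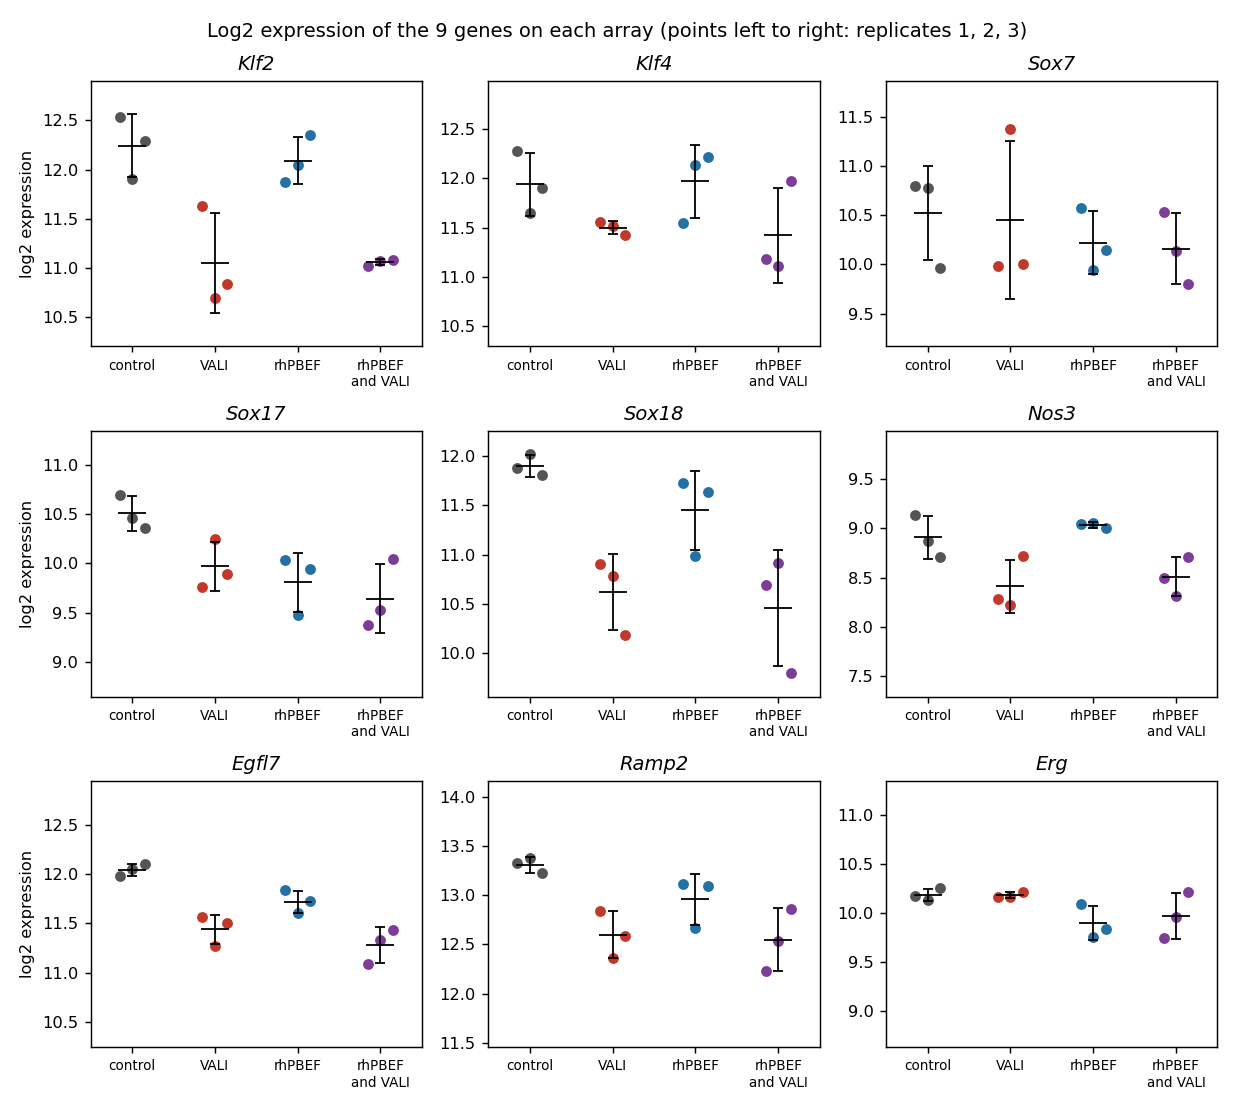
Log2 expression of the 9 genes on each of the 12 arrays, with group means (wide bars) and SD (error bars, n = 3); every panel spans the same number of log2 units. On the main probe sets shown, all 6 ventilated arrays lie below all 6 unventilated ones for Klf2, Sox18 and Egfl7. Sox7 and Erg show overlapping groups with and without ventilation.

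Nos3, the endothelial nitric oxide synthase and a classic KLF2 target, was lower in ventilated lungs. Control arrays read 9.14, 8.87 and 8.71 and VALI arrays 8.28, 8.22 and 8.72 on the log2 scale. Arrays after rhPBEF read 9.05, 9.06 and 9.0, and those after both treatments 8.5, 8.31 and 8.71. With rhPBEF the ventilated arrays all lay below the unventilated ones, and without it VALI replicate 3 reached into the control range. The difference was -0.50 ± 0.15 (SE) for VALI against control and -0.53 ± 0.15 for both treatments against rhPBEF. Leaving out the 2 arrays with raised muscle markers gave -0.66 and -0.52.

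Egfl7, a secreted protein of the endothelial matrix that modulates Notch signalling, had the tightest replicates of the effector genes in control lungs (SD 0.06). Its log2 level was 11.98, 12.05 and 12.10 in control lungs and 11.56, 11.27 and 11.50 in VALI lungs. It was 11.84, 11.61 and 11.73 after rhPBEF and 11.09, 11.33 and 11.43 after both. On this main probe set all ventilated arrays lay below all unventilated ones, and the mean difference was -0.60 ± 0.11 (SE) without rhPBEF and -0.44 ± 0.11 with it. The 3 further Egfl7 probe sets gave -0.56, -0.56 and -0.38 without rhPBEF, and -0.41, -0.23 and -0.02 with it, a wider spread among probe sets in the lungs given rhPBEF. On the probe sets that gave -0.23 and -0.02, rhPBEF replicate 2 fell among or below the ventilated arrays. With all Egfl7 probe sets averaged, ventilated and unventilated arrays also overlapped, though VALI and control arrays did not.

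Ramp2, the accessory protein that turns the calcitonin receptor-like receptor into an adrenomedullin receptor, read 13.33, 13.38 and 13.23 in control lungs and 12.84, 12.36 and 12.59 in VALI lungs on the log2 scale. It read 13.12, 12.67 and 13.10 after rhPBEF and 12.23, 12.54 and 12.86 after both. VALI and control arrays did not overlap, and rhPBEF replicate 2 and replicate 3 of the combined treatment crossed. The difference was -0.72 ± 0.18 (SE) for VALI against control and -0.42 ± 0.18 for both treatments against rhPBEF.

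Erg stood level under ventilation. Control arrays read 10.17, 10.13 and 10.25 and VALI arrays 10.16, 10.16 and 10.21 on the log2 scale. Arrays after rhPBEF read 10.09, 9.76 and 9.84, and those after both treatments 9.75, 9.96 and 10.21. The VALI arrays lay within the control range. The VALI difference was -0.01 ± 0.12 (SE), with a 95% interval of -0.26 to 0.25, and the Egfl7 estimate lay outside that interval.

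Set beside all genes, 6 of the 9 genes had every VALI array below every control array, namely Klf2, Klf4, Sox17, Sox18, Egfl7 and Ramp2, where 15.5% of all genes did. With rhPBEF on both sides 4 did, Klf2, Sox18, Nos3 and Egfl7, where 4.28% of all genes did. Over all 6 ventilated and 6 unventilated arrays 3 did, Klf2, Sox18 and Egfl7, where 0.704% of all genes did. Averaging all probe sets of each gene left 3 with rhPBEF on both sides (Klf2, Sox18 and Nos3) and 2 over all arrays (Klf2 and Sox18). Since the genes were selected from such differences, nothing is read from these counts. The median VALI difference was -0.54 for the 9 genes and -0.039 for all genes, and counted from the lowest of 12921 Sox18 ranked 5 and Klf2 ranked 9. At the other end of the 9 Sox7 ranked 5836 and Erg 7471, inside the middle of all genes. The difference between the ventilation differences with and without rhPBEF was 0.15 ± 0.33 (SE) for Klf2, 0.29 ± 0.41 for Sox18 and 0.38 ± 0.29 for Sox17, and the 95% interval of each included 0.

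**Figure D2:**
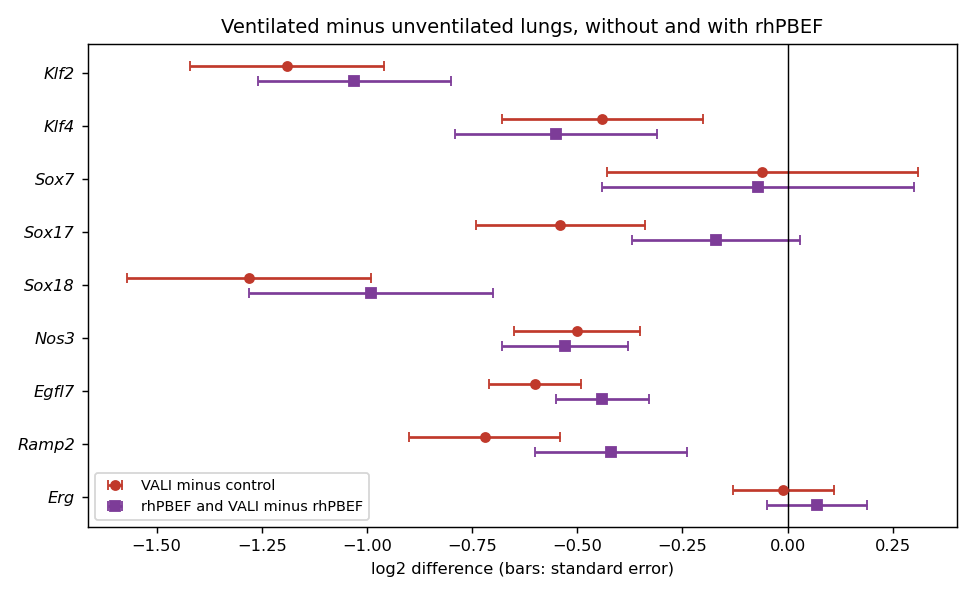
Log2 difference between ventilated and unventilated lungs for each gene, without rhPBEF (circles) and with rhPBEF on both sides (squares); bars are standard errors of the limma fit. Klf2 and Sox18 lie between -1.28 and -0.99, Klf4, Nos3, Egfl7 and Ramp2 between -0.72 and -0.42, Sox17 at -0.54 without and -0.17 with rhPBEF, and Sox7 and Erg at 0 within their errors.

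The mean of the endothelial markers was lower in VALI lungs than in control lungs, and overlapped between the combined and rhPBEF groups. In whole-lung RNA a smaller share of endothelial cells and less RNA per cell cannot be told apart. The mean of 22 pan-endothelial markers, relative to control, was -0.20, -0.60 and -0.20 in the VALI arrays, -0.10, -0.15 and -0.14 after rhPBEF and -0.36, -0.23 and -0.06 after both. Of these markers 9 had every VALI array below every control array and 0 had every one above, with a median of -0.25. Over all genes these shares were 15.5% and 9.1%. The list ran from Emcn (0.11) and Esam (0.08) down to Eng (-0.66), Clec14a (-0.95) and Tmem100 (-1.39), markers named after their values were seen. With rhPBEF on both sides 4 lay entirely below, where 4.28% of all genes did, and 1 entirely above, with a median of -0.06. Pecam1, an endothelial adhesion molecule, stood at -0.27 ± 0.08 (SE) for VALI against control, with no overlap between the groups. When each array was shifted by its endothelial marker mean, a scaling chosen after the values were seen, the VALI difference was -0.85 for Klf2, -0.95 for Sox18, -0.38 for Ramp2, -0.27 for Egfl7, -0.17 for Nos3, -0.21 for Sox17 and -0.11 for Klf4. Under that scaling Erg stood at 0.33 and Sox7 at 0.27, and all 6 ventilated arrays lay below all 6 unventilated ones for 1 gene, Klf2.

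KLF2 is also a quiescence factor of resting T cells and B cells, so their markers were set beside it. The mean of 10 T and NK cell markers was 0.20, -0.27 and 0.30 in the VALI arrays and 0.40, 0.21 and 0.05 after both treatments, and that of 8 B cell markers was -0.42, 0.53 and 0.00 and then 0.06, -0.09 and -0.03. On VALI replicate 2, where Klf2 was lowest, the T and NK cell list was low and the B cell list high. The mean of 12 neutrophil markers stood above control on all treated arrays, by 2.75, 2.56 and 0.70 in VALI lungs, 2.53, 2.20 and 2.12 after rhPBEF and 3.48, 2.36 and 1.81 after both. The part of cell composition in the differences of Klf2 and the other genes was not tested.

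**Figure D3:**
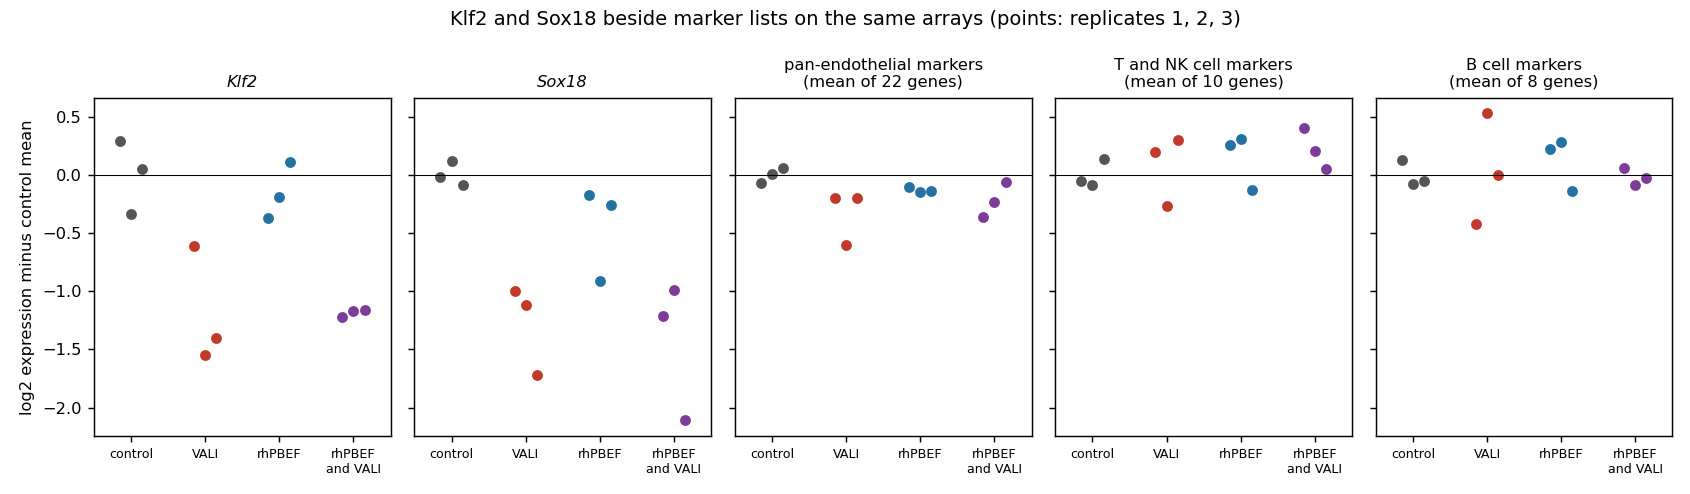
Klf2, Sox18 and the means of 3 marker lists on each array, as log2 expression minus the control mean. Ventilated arrays of Klf2 and Sox18 lie between -0.61 and -2.12, the endothelial list between -0.06 and -0.60, and the T and NK cell and B cell lists on both sides of 0.

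Whether rhPBEF altered the 9 genes was tested with limma, first as rhPBEF averaged over ventilation status, a comparison whose error is unrelated to that of VALI against control. None of the 9 passed an adjusted p of 0.05, where 2.06% of all genes passed as lower, and 3 (Sox17, Egfl7 and Erg) lay below 0.05 before adjustment, where 23.7% of all genes did in either direction. Sox17 came closest, with a log2 difference of -0.51 ± 0.14 (SE) and a 95% interval of -0.82 to -0.19 (limma adjusted p = 0.0684, with a range of 0.00268 to 0.164 over the alternatives). Its second probe set gave -0.42 ± 0.13. Egfl7 stood at -0.24 ± 0.08 (limma adjusted p = 0.0981) and Erg at -0.25 ± 0.08 (limma adjusted p = 0.108). Without replicate 3 of the combined treatment these 3 genes passed, Sox17 at -0.61 (limma adjusted p = 0.0148), Egfl7 at -0.28 (0.0431) and Erg at -0.31 (0.0244). Calls rose over all genes too, to 1584 of 12921, from 266 lower and 338 higher in the main fit. Array weights also brought Sox17 (limma adjusted p = 0.00268), Egfl7 (0.00387), Ramp2 (0.0143) and Erg (0.00971) past the threshold, and averaging both Erg probe sets gave 0.039. Array weights raised the count over all genes further, and their estimation stopped short of its convergence tolerance.

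Klf2 and Sox18 did not stand out here. Klf2 differed by -0.07 (95% interval -0.43 to 0.29, limma adjusted p = 0.828) and Sox18 by -0.30 (-0.76 to 0.15, limma adjusted p = 0.400). Klf4 differed by -0.03 (-0.41 to 0.35), Sox7 by -0.30 (-0.87 to 0.28), Nos3 by 0.12 (-0.12 to 0.35) and Ramp2 by -0.20 (-0.47 to 0.07). Each of these intervals leaves room for a change of either sign, and the missed threshold does not show that the levels were equal. Of the 9 genes 8 were negative with a median of -0.24, while 63.4% of all genes were negative with a median of -0.045.

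Against control alone, rhPBEF gave 0 of 9 genes past the threshold, where 0.286% of all genes passed as lower, and the same 3 genes lay below 0.05 before adjustment, where 18.3% of all genes did. This comparison shares its control arrays with VALI against control. Sox17 was again the lowest, at -0.70 ± 0.20 (SE, limma adjusted p = 0.127), followed by Sox18 at -0.45 (0.438), Ramp2 at -0.35 (0.316), Egfl7 at -0.32 (0.172) and Erg at -0.29 (0.233). In all 5 of these genes every rhPBEF array lay below every control array, as was so for 24.0% of all genes. Without rhPBEF replicate 2, Sox18 stood at -0.22 and Ramp2 at -0.20. Leaving out both arrays with raised muscle markers gives the same values by construction, since VALI replicate 3 does not enter these differences. Klf2 (-0.15), Klf4 (0.03), Sox7 (-0.29) and Nos3 (0.13) overlapped with control. Within ventilated lungs, rhPBEF and VALI against VALI, 0 of 9 genes passed, where 0.0155% of all genes passed as lower. The smallest limma adjusted p among the 9 there was 0.609 and 0 lay below 0.05 before adjustment, where 9.98% of all genes did. That comparison shares the VALI arrays with VALI against control.

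**Figure D4:**
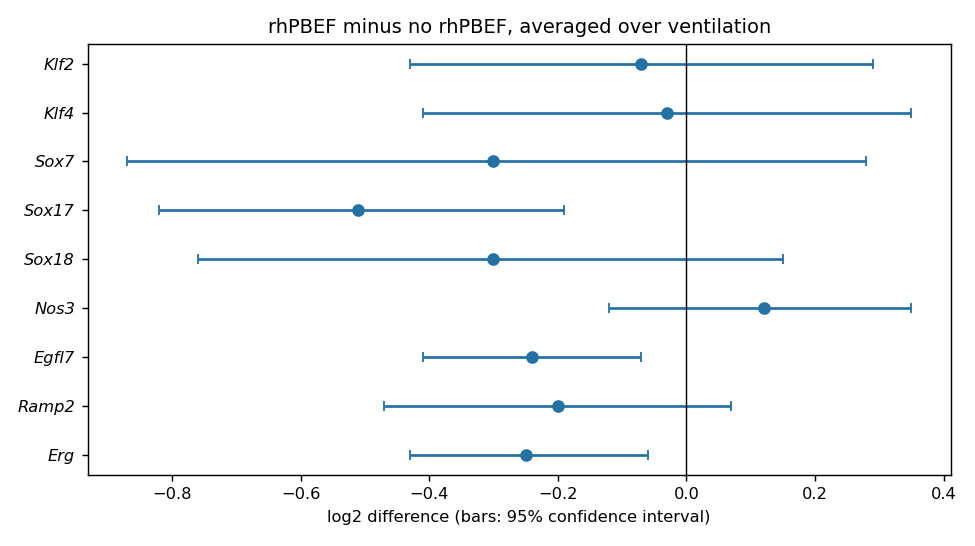
Log2 difference between lungs with and without rhPBEF, averaged over ventilation status, for each gene; bars are 95% confidence intervals of the limma fit. The intervals of Sox17 (-0.82 to -0.19), Egfl7 (-0.41 to -0.07) and Erg (-0.43 to -0.06) lie below 0, and none of the 9 genes passed after adjustment over 12921 genes.

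The surrounding pathways were described from lists written with earlier results of these data known. Of 36 laminar flow genes 8 had every VALI array below every control array and 2 every one above, with a median of -0.11. Over all genes these shares were 15.5% and 9.1%, against which the counts for the following lists are also to be read. Gja4, the arterial gap junction gene, stood at -1.07 ± 0.34 (SE), while the prostaglandin synthase gene Ptgs2 stood at 0.91 ± 0.48. The 2 genes entirely above control were the chemokine gene Ccl2, at 0.86 ± 0.55, and the leukocyte adhesion gene Vcam1, at 0.53 ± 0.25. Of the kinase cascade upstream of Klf2, Map3k2 stood at -0.17 ± 0.11, Map3k3 at -0.11 ± 0.10, Map2k5, which encodes MEK5, at -0.12 ± 0.09 with every VALI array below control, and Mapk7, which encodes ERK5, at -0.18 ± 0.10. The MEF2 genes stood at their control level within the error, with Mef2a at 0.01 ± 0.09, Mef2c at 0.02 ± 0.27 and Mef2d at -0.08 ± 0.15. Thbd, which encodes the anticoagulant thrombomodulin and is another KLF2 target, stood at -0.46 ± 0.13. Vcam1 and the 8 genes from Map3k2 to Thbd were named after their values were seen. With rhPBEF averaged over ventilation, 1 of the 36 rose, Ccl2, by 2.03 ± 0.39 (SE, limma adjusted p = 0.0178), and 0 fell, where 2.62% of all genes rose and 2.06% fell.

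Other members of the same transcription factor families did not share one direction. Of 12 further KLF genes 2 had every VALI array below control and 2 every one above, with Klf6 at 0.78 ± 0.35 (SE), Klf10 at -0.54 ± 0.14 and Klf13 at -0.45 ± 0.18. Of 10 SOX genes outside the SoxF group 3 lay entirely below and 1 entirely above, with Sox11 at -0.96 ± 0.35, Sox13 at -0.59 ± 0.12 and Sox12 at -0.20 ± 0.08. Of 26 endothelial transcription factor genes 6 lay entirely below and 4 entirely above. Bcl6b, a transcriptional repressor, stood at 1.37 ± 0.36, while Hey1, a Notch target, stood at -0.67 ± 0.25 and Gata2, an endothelial and blood progenitor factor, at -0.51 ± 0.13. In these 3 lists 0 genes passed in any rhPBEF comparison.

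Around Nos3, 2 of 15 nitric oxide pathway genes rose with rhPBEF averaged over ventilation and 0 fell, beside the 2.62% of all genes that rose. Arg2, the arginase that competes with nitric oxide synthase for arginine, rose by 1.38 ± 0.16 (SE, limma adjusted p = 0.000875), with mean log2 levels of 8.82 in control, 9.74 in VALI, 10.68 in rhPBEF and 10.63 in combined lungs. Gch1, which starts synthesis of the synthase cofactor tetrahydrobiopterin, rose by 0.98 ± 0.23 (limma adjusted p = 0.0357). Under VALI 3 of the 15 lay entirely below control and 2 entirely above. Arg2 stood at 0.91 ± 0.22 there, Gch1 at 0.42 ± 0.32 and Gucy1a1, a subunit of the nitric oxide receptor guanylate cyclase, at -0.46 ± 0.15.

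Around Ramp2, 1 of 7 genes of the adrenomedullin and calcitonin gene-related peptide system rose with rhPBEF averaged over ventilation and 0 fell. That gene was the ligand Adm, by 1.41 ± 0.34 (SE, limma adjusted p = 0.0425). Over all genes 2.62% rose and 2.06% fell in that comparison. Calcrl, the receptor that Ramp2 accompanies, stood at -0.14 ± 0.18 under VALI, and Ramp3, the alternative partner, at -0.42 ± 0.29. The estimate for Adm had the other sign there, at 0.49 ± 0.49. Of the 7 genes 1 had every VALI array below control, namely Calcrl. Around Egfl7, 6 of 16 Notch pathway genes had every VALI array below control, beside 15.5% of all genes, and 0 every one above, with a median of -0.23. The modifier Lfng stood at -0.58 ± 0.13 and the ligand Dll1 at -0.51 ± 0.21 there. Dll1 rose with rhPBEF averaged over ventilation, by 0.75 ± 0.15 (SE, limma adjusted p = 0.0187). It was the 1 gene of the 16 to pass, beside the 2.62% of all genes that rose.

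The profile most like that of Klf2 over the 12 arrays, each gene centred on its control mean, was that of Adgre5, an adhesion receptor of leukocytes and other cells, with a root mean square difference of 0.34 on the log2 scale. Acot1 (0.34), Ripply3 (0.35), She (0.36) and the growth factor receptor gene Fgfr3 (0.37) followed. For Sox18 the nearest were Smad6, which dampens BMP signals and is itself induced by flow in endothelium (0.36), Ankrd63 (0.38), Adgre5 (0.42), She (0.45) and Sox11 (0.45), and Klf2 came next at 0.45. Smad6 averaged 12.29, 11.06, 11.96 and 10.71 in control, VALI, rhPBEF and combined lungs, and Adgre5 12.44, 11.36, 12.11 and 11.34. Among the 9 genes the closest pair was Egfl7 and Ramp2, at 0.13, followed by Klf4 and Nos3, at 0.27, and the farthest was Erg and Sox18, at 0.97. These likenesses use the same arrays that served to choose Klf2 and Sox18 and are given as a description.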

How the data were processed

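Lung RNA from 12 mouse samples was measured on Affymetrix arrays. The values deposited by the authors are log2 expression per probe set, with array medians from 7.0 to 7.07. MAS5 and GCRMA are named per the submitters' processing notes. The role of each tool is not given in the sources used here, nor is the normalisation, and no build is named. Groups came from the sample titles, and a description calling every sample a control was not used.

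Of 45101 probe sets 64 controls were left out, and 27022 had a mean above the 40th percentile (6.42). Of the non-control probe sets 34945 had 1 symbol, 932 several and 9160 none in the platform annotation, and those with 1 symbol gave 12921 genes, each by its probe set of highest mean. limma 3.58.1 in R 4.3.3 fitted 4 group means with lmFit and eBayes. Residual degrees of freedom were 8, with 2.99 added by the prior. P-values were adjusted by Benjamini-Hochberg over all genes, and 0.05 was the threshold. The smallest two-sided p of an exact test on 3 arrays a side is 0.1. The number of arrays limits the precision, and no detection calls were used. The fit was tested on simulated data with independent noise for each gene. That setting holds no array-wide disturbance, so it does not bear on the dependence on single arrays.

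The members and gene lists were chosen with earlier results of these data known. By rule the 9 members and the 5 nearest profiles to Klf2 and Sox18 were named. So were, in each pathway list, the genes past 0.05 in a test and the 3 with the largest VALI differences. Some cell type markers were named too. Further laminar flow genes, and the markers at either end of the endothelial list, were named after their values were seen. Alternatives changed the filter, scaling, variance model, probe set choice, arrays and replicate block. Python 3.11.15 and matplotlib 3.10.9 drew the figures. Same-numbered arrays of different groups had deviations correlating from -0.21 to 0.53, the highest between rhPBEF and the combined treatment. That range does not settle whether the numbers mark pairs. They were not taken as pairs in the main fit, and a fit with the replicate block is given below.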

Additional observations from a re-analysis of the deposited data

How the results depend on the processing

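Under ventilation, Klf2 kept a negative VALI difference in all 23 alternatives (-1.48 to -0.71), as did Sox18 (-1.42 to -0.95), while Sox7 turned sign in 6 and Erg in 8. The endothelial marker scaling, chosen after seeing the data, left 1 gene with all ventilated arrays below all unventilated ones. In the tests of rhPBEF averaged over ventilation, rhPBEF against control and rhPBEF and VALI against VALI, array weights, whose estimation stopped short of its convergence tolerance, gave 4, 2 and 2 of the 9 genes past 0.05 and 4417, 1626 and 3029 genes in all, against 604, 158 and 42 in the main analysis. The mean of all probe sets gave 1 of the 9 for the averaged comparison. Fitting the compared groups alone gave 636 genes against control and 3 against VALI, counting probe sets gave 65 against VALI, and leaving out the 2 arrays high in skeletal muscle genes gave 69 against control. Leaving out 1 array at a time gave 0 to 3 of the 9 genes in the averaged comparison and 0 in the others, and 234 to 1584, 44 to 358 and 13 to 406 genes in all, the highest counts each without replicate 3 of the combined treatment. With the replicate block 658, 186 and 49 genes and 0 of the 9 passed, and the block changed no call among the 9.

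Differences near 0 changed sign. For Klf4, rhPBEF against control was -0.001 with the mean of probe sets, -0.05 without the muscle arrays and -0.12 to 0.24 leaving out 1 array, and the averaged difference ran from -0.16 to 0.08 (Klf2: -0.16 to 0.07). For rhPBEF and VALI against VALI, Klf2 was -0.01 with quantile normalisation, -0.39 with array weights, -0.10 without the muscle arrays and -0.11 with endothelial scaling; array weights gave 0.09 for Sox7, 0.10 for Sox18 and -0.02 for Nos3, and endothelial scaling -0.02 for Nos3. Leaving out 1 array there gave -0.18 to 0.30 for Klf2, -0.36 to 0.07 for Klf4, -0.54 to 0.17 for Sox7, -0.38 to 0.18 for Sox18, -9e-04 to 0.26 for Nos3 and -0.21 to 0.11 for Ramp2. The cause was not tested.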
